A study of Homo sapiens with 28 samples.

Results

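This report follows 38 genes that encode splicing factors of the SR and hnRNP families through every treatment group of a series of RNA-seq libraries from LNCaP, a human prostate cancer line that responds to androgen. The members are the genes named SRSF, HNRNP, TRA2A, TRA2B or PTBP1 to PTBP3 whose level averaged at least 1 CPM (counts scaled to a common library size) over 28 libraries, with pseudogenes left out. Of 166 rows of the count table with such names, 123 were pseudogenes and 5 others were under the limit, which left 38 of the 61815 human genes in the table. They comprise 11 SRSF genes, 22 hnRNP genes, the TRA2 pair and 3 PTBP genes. The lowest member was HNRNPA1L2 at a mean of 1.54 CPM, and the gene just outside the limit was SRSF12 at 0.886 CPM.

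All groups shared a period of 72 h without androgen, in serum that charcoal had stripped of steroid hormones, before treatment. In the first experiment they then received, for 24 h, vehicle (0.1% DMSO), Senexin B at 1 µM, the synthetic androgen R1881 at 0.1 nM, or R1881 and Senexin B together, with 3 libraries per group. In the second they received, for 72 h, vehicle, SNX631 at 500 nM, R1881 at 1 nM, or R1881 and SNX631 together, with 4 libraries per group. Senexin B and SNX631 inhibit the Mediator kinases CDK8 and CDK19. LNCaP is a single line, and its genotype is given as WT for every library. Doses are those of the labels, and the text of the study gives another dose of Senexin B. Time, R1881 dose, inhibitor and experiment changed together, so their parts in any difference between the experiments cannot be told apart.

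SR proteins bind exons through RNA recognition motifs and recruit the spliceosome through domains rich in arginine and serine, which SRPK and CLK kinases phosphorylate. hnRNP proteins coat nascent RNA, and many of them oppose exon use or guide RNA export, stability and translation. PTBP1 and its paralogues are hnRNP proteins that bind pyrimidine-rich tracts, and PTBP2 is known as the form that prevails in neurons. Many of these genes limit their own output by splicing in an exon that sends the transcript to nonsense-mediated decay. In prostate cancer the family is of interest because the androgen receptor itself and many of its targets are spliced in more than 1 way.

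Total counts per library lay between 9846595 and 33809419, and the highest belonged to 24 h vehicle replicate 3, with all others at 15248512 or less. Replicates were close, with biological coefficients of variation of 2.72% (24 h) and 2.38% (72 h). KLK3, the androgen target that encodes prostate-specific antigen, rose with R1881 by a log2 fold change of 6.15 (24 h) and 6.57 (72 h). The 12 luminal prostate markers checked summed to between 4310 and 5920 CPM in all libraries, and the 5 basal epithelial and the 6 immune markers to less than 1 CPM (highest sums 0.778 and 0.69 CPM), while 7 fibroblast markers summed to between 10.3 and 38 CPM, mostly from COL1A1 and COL3A1, with DCN at 0.079 CPM or less. The fibroblast sum was lower with R1881, at 16.4 to 18.3 CPM against 28.2 to 31.3 CPM with vehicle (24 h) and at 18.9 to 26.1 against 34.2 to 38 CPM (72 h), and its part in the members' changes was not tested. The 5 neuroendocrine markers used summed to between 18.5 and 45.9 CPM, nearly all from ENO2, and the 4 endothelial markers to 4.5 CPM or less, mostly from VWF, which rose with R1881 by a log2 fold change of 1.32 (24 h) and 2.04 (72 h). Bulk RNA does not tell more cells of a kind from more RNA per cell.

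Every member passed the filter on low counts and was tested in both experiments. A member is said to have risen or fallen when its false discovery rate (FDR) in the edgeR quasi-likelihood test, adjusted over all genes tested, was under 0.01. The study's stricter limit adds a fold change over 1.5. Levels in single libraries are CPM scaled by TMM over all libraries, and p-values measure the spread between these libraries. The study's methods call its RNA-seq replicates biological, and the labels do not say whether they came from separate cultures.

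Per kilobase of annotated exon, HNRNPA1, which packages nascent RNA and promotes exon skipping, was the most abundant member at 215 CPM per kb, followed by HNRNPK at 148 and HNRNPF at 122 CPM per kb. Among SR genes SRSF2 led at 63.1 CPM per kb, ahead of SRSF1 at 58.7 CPM per kb. PTBP2, at 1.57 CPM per kb, and HNRNPA1L2, at 1.09 CPM per kb, were the least abundant. HNRNPA1L2 and HNRNPA1L3 are near copies of HNRNPA1, and how reads were split among them is uncertain. The table also lists 74 pseudogenes of HNRNPA1, which took between 0.59 and 1.24% of the counts of HNRNPA1 and its pseudogenes together.

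The counts are sums over all transcripts of a gene. In GENCODE 29, 27 of the 38 members (71.1%) have a transcript annotated for nonsense-mediated decay, against 35.6% of 19951 protein-coding genes, and 25 members (65.8%) have a retained-intron transcript, against 46.2%. A change in the sum could come from any of these transcripts. Exons on the opposite strand overlap 46.2% of the exon bases of SRSF9 (gene GATC) and 36.7% of those of SRSF2 (gene MFSD11). COX20 overlaps 15.6% of HNRNPU and PHYKPL 9.14% of HNRNPAB in the same way. On its own strand, SRSF1 shares 1890 of its 3340 exon bases with AC015813.2. HNRNPUL2 likewise shares 2391 of its 5416 exon bases with HNRNPUL2-BSCL2, and some other members have smaller overlaps of this kind. Libraries were made with a directional kit, and whether counting used strand is not given in the sources used here.

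RefSeq promoter windows, from 250 bases before to 50 bases after a gene start on GRCh38.p14, matched 34 of the 38 members. HNRNPA1, HNRNPA1L3, SRSF2 and TRA2A had no window and were not searched. Several members have more than 1 start, giving 49 windows, some of which overlap. A search of both strands for the androgen response element (GNACA and TGTNC with 3 bases between them) found it in none of the 49 windows and in 0.39% of all 35116 windows. Its single arm AGAACA was found in 14.3% of the member windows and in 14.8% of all windows. The E-box CACGTG, the site bound by MYC and USF proteins, was found in 16.3% of the member windows and in 7.26% of all windows. The member windows were also richer in G and C, with a median of 65%, against 58.7% for all windows. The part of that in the E-box shares was not tested. The E-box lay in the windows of HNRNPA3, HNRNPD, HNRNPDL, HNRNPH2, HNRNPH3, HNRNPM and HNRNPUL1. It lay in none of the SRSF, TRA2 or PTBP windows searched, which do not cover SRSF2 and TRA2A. These are matches of letters in a short window and say nothing on binding. The E-box is shown in capitals for the 5 of these genes whose R1881 response differed with SNX631 or passed the test in both experiments, a choice that used their responses, each written 5′ to 3′ on the strand of the gene in a window of 30 bases. HNRNPDL holds another E-box at its other start. HNRNPH2 and HNRNPUL1, which hold an E-box and are not shown, passed the test with R1881 alone in neither experiment.

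HNRNPA3 promoter, chr2:177212711-177212740, plus strand: cggaaaacgcgtCACGTGacgactggcccc
HNRNPD promoter, chr4:82374001-82374030, minus strand: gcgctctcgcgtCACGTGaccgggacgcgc
HNRNPDL promoter, chr4:82430572-82430601, minus strand: ggagcccgagacCACGTGggcaggaaaagg
HNRNPH3 promoter, chr10:68331631-68331660, plus strand: tgccggtcgaacCACGTGgggccctttccg
HNRNPM promoter, chr19:8444921-8444950, plus strand: gttgcgtcgggtCACGTGggcgcgcaggcg

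The motif begins 71 bases before the gene start in HNRNPA3, 27 in HNRNPD, 127 in HNRNPDL, 50 in HNRNPH3 and 42 in HNRNPM. HNRNPD and HNRNPDL are neighbours on chromosome 4, and their R1881 responses are set side by side further on.

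The first comparison asked how androgen alone changed the members. The member furthest from 0 was SRSF2 (chr17:76734115-76737374, minus strand), which rose, at 24 h and PTBP2 (chr1:96721665-96823738, plus strand; GENCODE 29, GRCh38), which fell, at 72 h. R1881 raised 18 of the 38 at 24 h and 20 at 72 h, and it lowered 4 at each time. Of all genes tested, 26.3% rose and 22.1% fell at 24 h, and 27.6% rose and 24.6% fell at 72 h. The median log2 fold change of the members was 0.12 at 24 h and 0.11 at 72 h, beside -0.02 and -0.01 for all genes. The median size of a member's change was 0.15 at both times, against 0.26 for all genes. With scaling by library totals alone, the median of all genes moved to -0.09 at 24 h and to -0.12 at 72 h, and the members then split into 15 higher with 8 lower (24 h) and 14 higher with 11 lower (72 h). Over all genes the split moved from 27.6% higher and 24.6% lower at 72 h to 19.9% and 35.3%, and from 26.3% and 22.1% at 24 h to 21% and 29.7%.

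**Figure D1:**
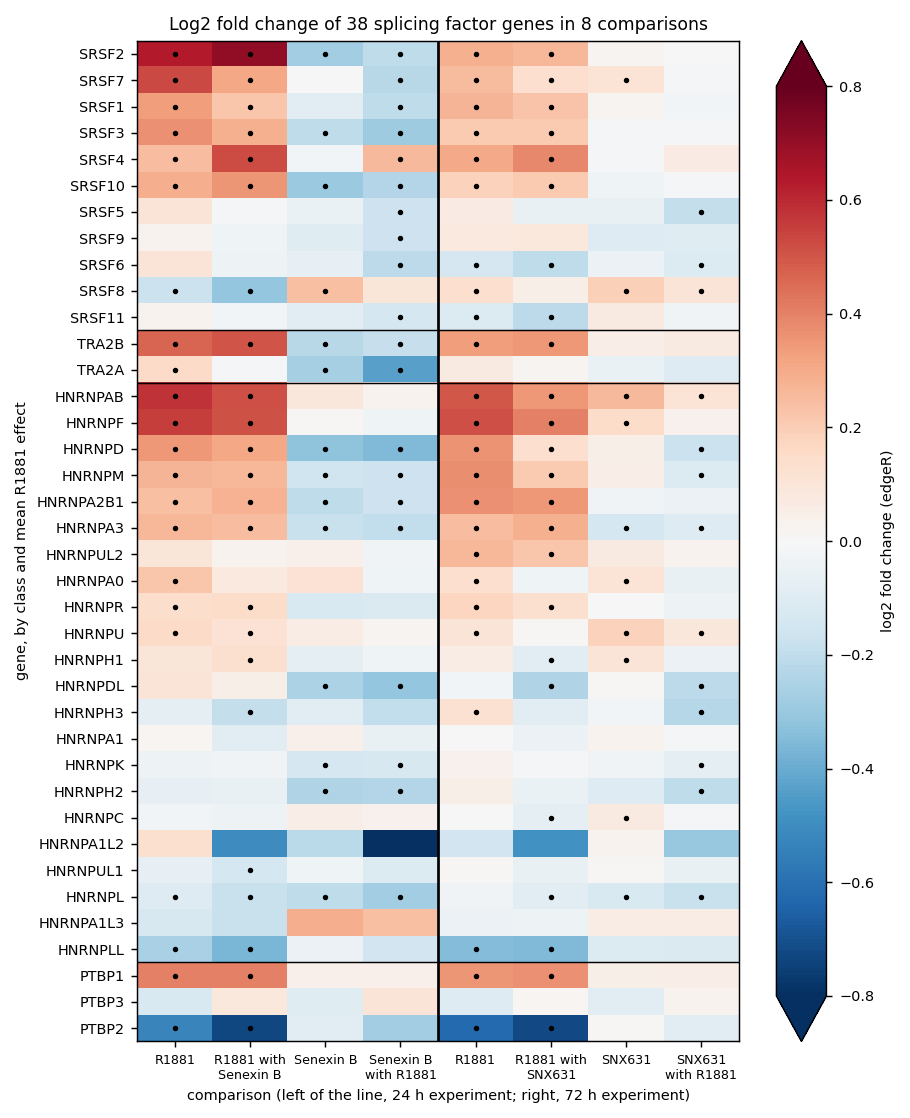
Log2 fold change (colour, from edgeR) of each of the 38 members (rows, grouped as SRSF, TRA2, hnRNP and PTBP genes and ordered by mean R1881 effect) in 8 comparisons (columns, 24 h to the left of the line and 72 h to the right); a dot marks an FDR under 0.01. R1881 columns are mostly red at the top of each class, and the Senexin B columns hold 13 and 19 members that fell.

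Among the SR genes, SRSF1, SRSF2, SRSF3, SRSF4, SRSF7 and SRSF10 rose in both experiments. SRSF2, which binds exonic enhancers and promotes exon inclusion, had the largest 24 h rise of all members. Its level was 159, 152 and 154 CPM in the vehicle libraries and 238, 243 and 240 CPM with R1881, so the groups were far apart, and the fold change was 1.549 (log2 0.63, SE 0.034, edgeR FDR 5.92e-17). At 72 h it was 175, 181, 179 and 172 CPM with vehicle and 211, 220, 215 and 217 CPM with R1881, again without overlap, and the fold change was 1.217 (edgeR FDR 1.44e-11). SRSF2 was the only member past the study's limit among those that rose with R1881 alone, and only at 24 h, where 9.81% of all genes passed that limit in the upward direction. MFSD11, whose exons overlap those of SRSF2 on the other strand, had an R1881 effect of -0.08 at 24 h (SE 0.069, edgeR FDR 0.301) and of -0.09 at 72 h (edgeR FDR 0.284).

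SRSF7, which also serves RNA export, rose by a log2 fold change of 0.53 (24 h) and 0.26 (72 h). SRSF1, the founding SR protein, rose from between 166 and 171 to between 210 and 214 CPM at 24 h (log2 0.34, SE 0.033) and from between 187 and 193 to between 227 and 233 CPM at 72 h (log2 0.27, SE 0.026). SRSF3 rose by 0.36 and 0.21, SRSF10 by 0.29 and 0.19, and SRSF4 by 0.24 and 0.30 on the log2 scale, and the 72 h rise of SRSF10 was lost with library totals alone (log2 0.09, edgeR FDR 0.029). SRSF5 and SRSF9 did not pass the test in either experiment, with log2 fold changes between 0.03 and 0.10. SRSF11 fell at 72 h, by 0.11, a call lost without vehicle replicate 3 or R1881 replicate 3 or 4 (highest FDR 0.0153), and its 24 h value was 0.03. With library totals alone the values of SRSF9 at both times, of SRSF5 at 72 h and of SRSF11 at 24 h were below 0 and did not pass the test.

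The TRA2 pair bind purine-rich exonic enhancers. TRA2B rose in both experiments, from between 100 and 108 to between 139 and 146 CPM at 24 h (log2 0.47, SE 0.039) and from between 118 and 123 to between 148 and 158 CPM at 72 h (log2 0.34, SE 0.030). TRA2A rose by 0.15 at 24 h (SE 0.046, edgeR FDR 0.00615), a call lost without vehicle replicate 3 or R1881 replicate 2 (highest FDR 0.0651), in DESeq2, with library totals alone and without the filter on low counts. Its 72 h value was 0.07 (edgeR FDR 0.107), and -0.03 with library totals alone. The ratio of TRA2A to TRA2B counts does not depend on scaling. It went from 0.676 ± 0.0224 (SD, n = 3) with vehicle to 0.541 ± 0.0256 with R1881 at 24 h, and from 0.596 ± 0.0107 to 0.498 ± 0.00802 (SD, n = 4) at 72 h, without overlap between the groups.

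Of the 22 hnRNP genes, 9 rose and 2 fell at 24 h, and 11 rose and 1 fell at 72 h. The shares over all genes were 26.3% up and 22.1% down (24 h), and 27.6% up and 24.6% down (72 h). HNRNPAB, an RNA-binding protein that also regulates transcription, was at 135, 139 and 138 CPM with vehicle and 204, 208 and 204 CPM with R1881 at 24 h (fold change 1.491, edgeR FDR 4.46e-16). At 72 h it was at 154, 159, 148 and 156 CPM with vehicle and 221, 220, 212 and 223 CPM with R1881 (fold change 1.413, edgeR FDR 1.94e-17). All R1881 libraries were above all vehicle libraries in each experiment. PHYKPL, which overlaps it on the other strand, fell by 0.35 and 0.42 on the log2 scale (edgeR FDR 4.13e-05 and 7.1e-08).

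HNRNPF, which binds guanine-rich tracts near splice sites, was at 308, 316 and 309 CPM with vehicle and 460, 468 and 446 CPM with R1881 at 24 h (fold change 1.47). At 72 h it was at 326, 334, 317 and 337 CPM with vehicle and 476, 461, 478 and 470 CPM with R1881 (fold change 1.429). Again no library of one group reached the other. Its relative HNRNPH1 did not pass the test in either experiment (log2 0.10 and 0.06, the latter -0.04 with library totals alone), and the ratio of HNRNPH1 to HNRNPF counts was 0.655 ± 0.0137 with vehicle and 0.476 ± 0.00517 with R1881 at 24 h (SD, n = 3). The 72 h ratio was 0.832 ± 0.0381 with vehicle and 0.605 ± 0.0202 with R1881 (SD, n = 4).

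HNRNPD, known as AUF1 for its part in the decay of AU-rich messages, rose from between 137 and 147 to between 177 and 182 CPM at 24 h (log2 0.34, SE 0.038) and from between 175 and 184 to between 225 and 240 CPM at 72 h (log2 0.36, SE 0.029). Its neighbour and paralogue HNRNPDL did not pass the test, with log2 fold changes of 0.11 (edgeR FDR 0.0223) and -0.02 (edgeR FDR 0.574). HNRNPM, HNRNPA3 and HNRNPA2B1 had 24 h log2 fold changes of 0.27, 0.27 and 0.24, and 72 h ones of 0.37, 0.25 and 0.36, all past the limit. HNRNPA2B1 binds and sorts RNA and shares its architecture with HNRNPA1. HNRNPA1 itself lay between 949 and 1010 CPM with vehicle and between 971 and 1000 CPM with R1881 at 24 h, overlapping throughout, with a difference of 0.02 on the log2 scale (edgeR FDR 0.702, SE 0.033), and its 72 h value of -0.0049 (SE 0.020, edgeR FDR 0.846) did not pass either. With library totals alone these became -0.06 (edgeR FDR 0.0954) and -0.11, which passed (edgeR FDR 1.18e-05).

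HNRNPLL, a regulator of alternative splicing in lymphocytes, fell in both experiments. It was at 72.4, 72.3 and 70 CPM with vehicle and 57.5, 62.2 and 59.2 CPM with R1881 at 24 h (log2 -0.26, edgeR FDR 2.03e-05), and at 78.9, 80.8, 80.2 and 80.1 CPM against 63.4, 64.6, 63.7 and 61 CPM at 72 h (log2 -0.35, edgeR FDR 4.71e-10). The groups did not overlap. Its paralogue HNRNPL fell by 0.10 at 24 h, a call lost without any of the 6 vehicle and R1881 libraries (highest FDR 0.0247) and on thinning to the smallest total, and had a value of -0.03 at 72 h (edgeR FDR 0.307).

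PTBP1 and PTBP2 went in opposite directions. PTBP1, a repressor of exons flanked by pyrimidine-rich tracts, rose from 214, 207 and 218 to 277, 280 and 290 CPM at 24 h (log2 0.40, edgeR FDR 9.46e-12) and from 234, 220, 230 and 234 to 288, 297, 297 and 295 CPM at 72 h (log2 0.36, edgeR FDR 1.61e-14). PTBP2 fell from 25.3, 22.7 and 24.2 to 17.1, 16.8 and 16.2 CPM at 24 h (log2 -0.53, SE 0.071, edgeR FDR 1.2e-07). At 72 h it fell from 25, 26.4, 25.8 and 26 to 17.9, 15.7, 18.5 and 15.6 CPM (log2 -0.62, SE 0.075, edgeR FDR 4.1e-09). Neither gene's groups overlapped.

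PTBP2 was the only member past the study's limit at 72 h, where 10.1% of all genes passed it downward. The ratio of PTBP2 to PTBP1 counts was 0.113 ± 0.00471 with vehicle and 0.0591 ± 0.00305 with R1881 at 24 h (SD, n = 3), and 0.113 ± 0.00547 with vehicle and 0.0575 ± 0.00545 with R1881 at 72 h (SD, n = 4). PTBP3 did not pass the test, at -0.12 and -0.11 (edgeR FDR 0.0362 and 0.0151). The summed neuroendocrine markers were also lower with R1881 than with vehicle. Their sum was between 40.3 and 42.8 CPM with vehicle and between 18.5 and 23.4 CPM with R1881 at 24 h. At 72 h it was between 42.4 and 44.4 and between 22.5 and 25.4 CPM. ENO2 made up nearly all of it, SYP reached 1.15 CPM, and CHGA, CHGB and INSM1 were at 0.168 CPM or less in every library. Only 2 of these genes were tested, and 1 of them fell with R1881 at each time. With R1881 and Senexin B the sum was between 24.4 and 28.6 CPM, above R1881 alone, while PTBP2 was at 13.7 to 13.8 CPM. The part of the marker change in the fall of PTBP2 was not tested. PTBP1 is known to repress PTBP2 by skipping of an exon in its transcript, and whether that took part here was not tested.

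**Figure D2:**
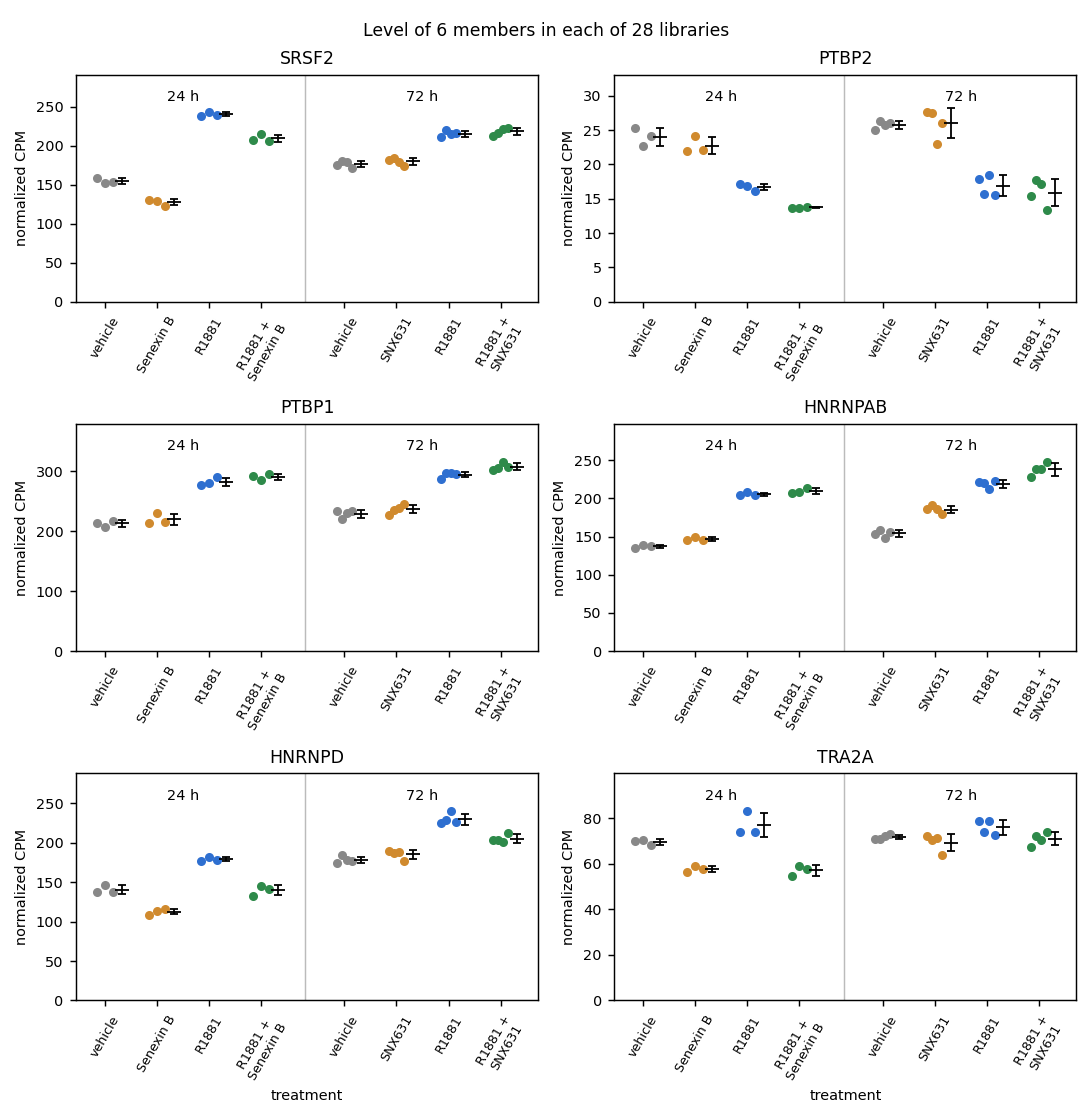
Normalized CPM (vertical axes, from 0) of 6 members in each of the 28 libraries (points, in replicate order), by treatment, with the mean and SD of each group beside the points. SRSF2, PTBP1, HNRNPAB and HNRNPD are higher and PTBP2 is lower with R1881 than with vehicle in both experiments, and TRA2A is lowest in the 24 h libraries with Senexin B.

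The R1881 libraries also held more proliferation transcripts. The 20 genes of a proliferation list summed to between 449 and 479 CPM with vehicle and between 1840 and 1940 CPM with R1881 at 24 h, and to between 857 and 894 and between 2150 and 2200 CPM at 72 h, and 20 of 20 rose in each. The part of proliferation in the members' changes was not tested. With an inhibitor beside R1881 that sum was higher still (2150 to 2370 CPM at 24 h and 3170 to 3300 CPM at 72 h).

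The next comparison asked whether the R1881 response differed between the experiments, which share no library. The same 17 members rose in both, which is 94.4% of those that rose at 24 h and 85% of those that rose at 72 h. Over all genes tested in both experiments these shares were 83.9 and 79.4%. HNRNPLL and PTBP2 fell in both, which is 50% of each list, against 76.7 and 68.7% over all genes. The difference itself, fitted over all 28 libraries, passed the test upward for 2 members and downward for 3, against 3.58% of all genes upward and 3.96% downward.

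The largest difference was that of SRSF2, whose R1881 effect was lower at 72 h by 0.34 on the log2 scale (difference -0.34, SE 0.041, edgeR FDR 1.37e-08). SRSF7 had a difference of -0.27 (edgeR FDR 0.000198) and SRSF6 one of -0.23 (edgeR FDR 3.93e-05). SRSF6, a regulator of exon inclusion with a long arginine and serine tail, was at 229, 224 and 221 CPM with vehicle and 239, 244 and 241 CPM with R1881 at 24 h, short of the FDR limit (0.011). At 72 h it fell, from 255, 266, 263 and 252 to 243, 230, 235 and 239 CPM (log2 -0.14, edgeR FDR 2.92e-05).

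SRSF8, a relative of SRSF2 that arose by retroposition, went from 224, 216 and 226 down to 199, 202 and 194 CPM at 24 h (log2 -0.17, edgeR FDR 9.14e-05). At 72 h it went from 167, 162, 157 and 162 up to 178, 182, 182 and 173 CPM (log2 0.13, edgeR FDR 0.000121). The groups did not overlap in either experiment, and the difference of the effects was 0.31 (SE 0.043, edgeR FDR 7.07e-07). The 72 h rise of SRSF8 did not pass the test when library totals alone were used for scaling (log2 0.03), and neither did those of HNRNPA0, HNRNPR and HNRNPU (log2 0.03, 0.07 and 0.00). SRSF8 also stood apart in the vehicle groups, with a mean of 222 CPM at 24 h and 162 CPM at 72 h, a ratio of 0.73, the lowest of all members. HNRNPA1L3 had the highest such ratio, 2.18 (3.53 and 7.71 CPM). HNRNPUL2, of the HNRNPU group, had a difference of 0.17 (edgeR FDR 0.00866), which was lost when any of 20 single libraries was left out, in DESeq2, with library totals alone, with the filter on a mean of 1 CPM and on thinning. SRSF6, SRSF7 and HNRNPUL2 were chosen for naming after these values were seen.

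**Figure D3:**
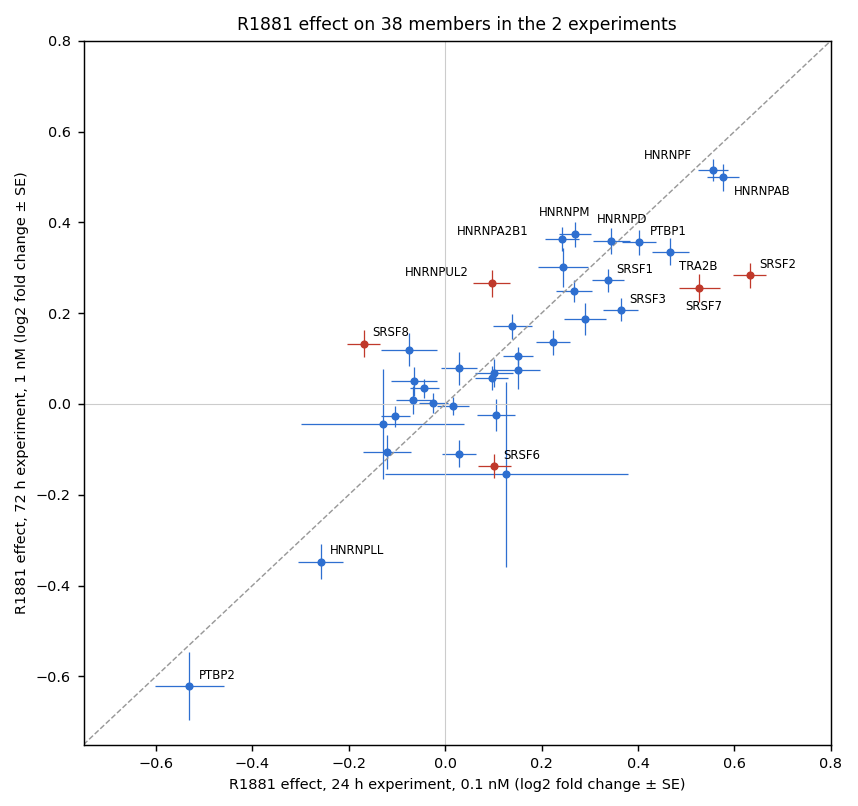
Log2 fold change with R1881 at 24 h (horizontal) against 72 h (vertical) for each of the 38 members, with bars of 1 SE and a dashed line where both are equal; red points are the 5 members whose difference between experiments passed an FDR under 0.01. SRSF2 and SRSF7 lie under the line at the right, SRSF8 lies above it at the left, and PTBP2 is lowest on both axes.

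In cells that received an inhibitor, R1881 raised 17 members and lowered 6 at 24 h with Senexin B, where 26.3% of all genes rose and 21.3% fell. With SNX631 at 72 h it raised 16 and lowered 8, where 29.8% of all genes rose and 27.5% fell. The median of the members was 0.06 at 24 h and 0.02 at 72 h, beside -0.01 for all genes at each time, and with library totals alone these became -0.01 and -0.09, beside -0.09 and -0.12 for all genes, with 14 members higher and 10 lower (24 h) and 13 higher and 16 lower (72 h). Over all genes that scaling placed 21.1% up and 28.3% down (24 h), and 21.9% up and 37.7% down (72 h).

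SRSF2 rose from 131, 129 and 123 CPM with Senexin B to 208, 215 and 206 CPM with both (fold change 1.636, edgeR FDR 1.17e-17), and the groups did not overlap. PTBP2 went from 22, 24.2 and 22.1 to 13.7, 13.7 and 13.8 CPM (fold change 0.6044, edgeR FDR 1.6e-09). With SNX631 PTBP2 went from 27.6, 27.5, 23 and 26 to 15.4, 17.7, 17.1 and 13.4 CPM (fold change 0.6063, edgeR FDR 3.96e-11). These were the only members past the study's limit under an inhibitor, which 9.97% of all genes passed upward and 8.9% downward at 24 h and 12% downward at 72 h.

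Whether an inhibitor changed the R1881 effect was tested as an interaction, in which a negative value means a lower R1881 effect with the inhibitor. At 24 h no member passed the edgeR test, upward or downward, against 1.08% of all genes upward and 1.02% downward. By the unadjusted edgeR p alone 9 members were under 0.05, and the share of all genes at that looser limit was not computed. The value furthest from 0 was -0.63, that of HNRNPA1L2, whose libraries held between 8 and 46 counts. Other values that missed the limit were those of SRSF4, 0.28 (edgeR FDR 0.0206), and SRSF7, -0.22 (edgeR FDR 0.0352). DESeq2 also placed no member past the limit, and leaving out R1881 replicate 1 gave 1 member downward.

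At 72 h, 6 members had a negative interaction and none a positive one, against 4.1% of all genes downward and 2.99% upward. All 6 were hnRNP genes, which make up 22 of the 38 members. HNRNPD rose by 0.36 without SNX631 and by 0.13 with it, an interaction of -0.22 (SE 0.040, edgeR FDR 0.000117). It was at 189, 187, 188 and 177 CPM with SNX631 alone and at 203, 204, 201 and 213 CPM with both, so the rise with R1881 was still without overlap, but with library totals alone it was 0.03 and did not pass (edgeR FDR 0.397).

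HNRNPDL, which had a value of -0.02 without SNX631, fell by 0.24 with it, from 146, 147, 137 and 142 to 118, 120, 131 and 119 CPM, without overlap (interaction -0.22, SE 0.050, edgeR FDR 0.00221). HNRNPM, a factor of alternative exon choice, rose by 0.37 and by 0.21 (interaction -0.17, edgeR FDR 0.00266). HNRNPH3 rose by 0.12 without SNX631, a rise lost without vehicle replicate 1, 2 or 3 or R1881 replicate 2, with library totals alone (log2 0.02) and in the fit of all 28 libraries, and had -0.08 with it (interaction -0.20, edgeR FDR 0.00553). HNRNPA0, which binds AU-rich elements, rose by 0.14 without (0.03 with library totals alone, short of the limit) and had -0.03 with SNX631 (interaction -0.17, edgeR FDR 0.00217), and HNRNPH1 had 0.06 without and fell by 0.09 with it, a fall lost without the filter on low counts (interaction -0.15, edgeR FDR 0.00402).

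Most of these interactions were close to the limit. Leaving out replicate 2 of R1881 with SNX631 left 3 of the 6 (HNRNPH1, HNRNPH3 and HNRNPM were lost). That of HNRNPDL was lost without vehicle replicate 4, that of HNRNPA0 without SNX631 replicate 3 (FDR 0.0101), and that of HNRNPM also without vehicle replicate 3 or R1881 replicate 2. HNRNPH3 was lost without any of 8 libraries (vehicle 1, 2 and 3, SNX631 2 and 4, R1881 2, both 1 and 2; highest FDR 0.023), in DESeq2 and in the fit of all 28 libraries. HNRNPH1 was lost without any of 6 libraries (vehicle 1 and 4, R1881 3 and 4, both 1 and 2; highest FDR 0.0172) and without the filter on low counts, and that of HNRNPD was kept in each of these settings and whichever library was left out (highest FDR 0.000793). HNRNPAB narrowly missed the limit, at -0.15 (edgeR FDR 0.0116). Of the proliferation list, 15 of 20 genes had a negative interaction at 72 h, and the part of that in the members' values was not tested. Of the members with an E-box in the promoter windows, HNRNPD, HNRNPDL, HNRNPH3 and HNRNPM had a negative interaction. HNRNPA3 (0.04), HNRNPH2 (-0.11) and HNRNPUL1 (-0.07) hold an E-box and did not pass, while HNRNPA0 and HNRNPH1 had the interaction and hold no E-box. A link between the E-box and the interaction was not tested.

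**Figure D4:**
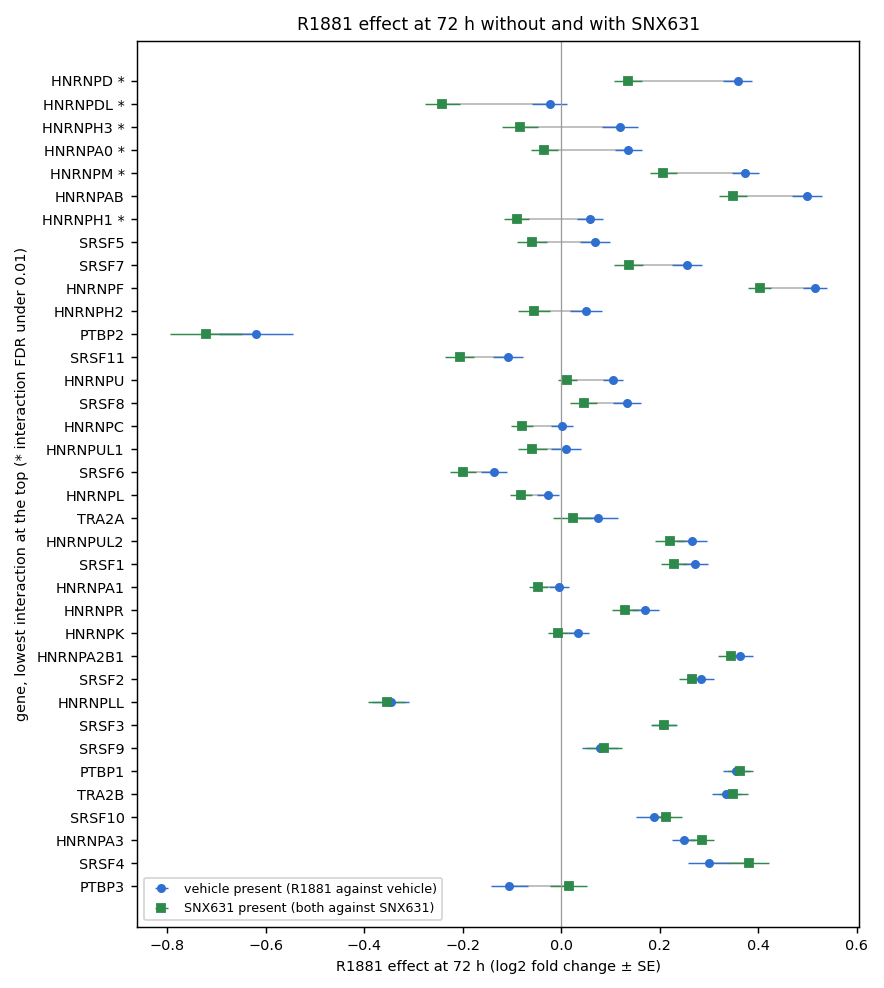
Log2 fold change with R1881 at 72 h (horizontal axis, bars of 1 SE) without SNX631 (blue circles) and with it (green squares) for 36 members, ordered by interaction, with asterisks at the 6 whose interaction passed an FDR under 0.01. HNRNPA1L2 and HNRNPA1L3 are left out for their low counts. The green square lies to the left of the blue circle for all 6, and the pairs nearly coincide for SRSF3, PTBP1 and HNRNPLL.

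The inhibitors alone and beside R1881 were the remaining comparisons. Senexin B without R1881 lowered 13 of the 38 members and raised 1, against 11.7% of all genes lower and 13.5% higher. With R1881 present it lowered 19 and raised 1, against 10% lower and 12.7% higher. None passed the study's limit, which 3.79% of all genes passed in either direction without R1881 and 3.12% with it. Leaving out any of 4 libraries (any R1881 replicate, or replicate 1 of R1881 with Senexin B) gave 2 members higher without R1881. The median of the members was -0.08 without and -0.16 with R1881, beside 0.00 and 0.01 for all genes, and library totals alone gave 17 and 24 lower members, with 1 higher in each, while over all genes they gave 15.8 and 13.1% lower and 10.5 and 9.68% higher. In these libraries the proliferation sum went up, from 449 to 479 CPM with vehicle to 623 to 682 CPM with Senexin B, and the part of that in the members' values was not tested.

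TRA2A had the largest fall among members past the limit. It was at 73.8, 83.1 and 74.2 CPM with R1881 and at 54.5, 58.9 and 57.9 CPM with R1881 and Senexin B (log2 -0.44, SE 0.051, edgeR FDR 4.48e-08). Without R1881 it went from 70.1, 70.4 and 68.3 to 56.5, 59.1 and 57.7 CPM (log2 -0.27, edgeR FDR 3.78e-05). The groups did not overlap either way. HNRNPA1L2 had a larger value, -0.84, but did not pass the test (edgeR FDR 0.0367), and its libraries held between 8 and 46 counts.

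HNRNPD fell with Senexin B from 138, 147 and 137 to 109, 113 and 116 CPM without R1881 (log2 -0.32) and from 177, 182 and 178 to 133, 145 and 142 CPM with it (log2 -0.36), without overlap in either pair. HNRNPDL fell by 0.25 and 0.31, SRSF2 by 0.28 and 0.20, SRSF10 by 0.30 and 0.23, TRA2B by 0.22 and 0.18, and HNRNPL by 0.21 and 0.28 on the log2 scale, without and with R1881. SRSF genes were among the falling members mainly with R1881 present. Without it 3 of 11 fell and with it 9 of 11, against 11.7 and 10% of all genes. For each SRSF gene the difference between these conditions is the 24 h interaction, which passed for none.

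The members that rose with Senexin B were SRSF8, without R1881 (log2 0.24, from 224, 216 and 226 to 261, 270 and 257 CPM), and SRSF4, with R1881, from 60.9, 60.6 and 56.7 to 73.6, 70.2 and 69.5 CPM (log2 0.26, edgeR FDR 0.000191). SRSF4 had a value of -0.02 without R1881 (edgeR FDR 0.807). HNRNPF, PTBP1, HNRNPAB and HNRNPA1 did not pass the test with Senexin B, at between -0.06 and 0.09.

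SNX631 at 72 h raised 8 members and lowered 2 without R1881, against 14.4% of all genes higher and 12.5% lower. It raised 3 and lowered 10 with R1881 present, against 17.8% higher and 15.4% lower. Library totals alone gave 4 higher and 5 lower without R1881 and 0 higher and 14 lower with it, where all genes gave 12.2% higher and 15.3% lower, and 14.7% and 18.9%. Without vehicle replicate 1, 5 members rose without R1881, and without replicate 4 of R1881 with SNX631, 4 fell. The median of the members was 0.02 without and -0.04 with R1881, beside 0.00 and -0.01 for all genes, and the first became -0.01 with library totals alone. No member passed the study's limit, which 4.77% of all genes passed without R1881 and 4.12% with it. The proliferation sum was between 1560 and 1720 CPM with SNX631 alone, above all vehicle libraries, and its part in the members' values was not tested.

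HNRNPAB had the largest rise, from 154, 159, 148 and 156 CPM with vehicle to 186, 191, 186 and 179 CPM with SNX631 (log2 0.26, SE 0.030, edgeR FDR 4.82e-09), without overlap, and it rose by 0.11 with R1881 present. HNRNPU, a scaffold of nuclear RNA and chromatin, rose by 0.18 and 0.09, and SRSF8 by 0.19 and 0.10, without and with R1881. COX20, which overlaps HNRNPU on the other strand, fell by 0.27 and 0.17 (edgeR FDR 3.35e-06 and 0.00208), and with R1881 alone it fell by 0.29 (24 h) and 0.25 (72 h). HNRNPF, HNRNPH1, HNRNPA0, SRSF7 and HNRNPC passed the test without R1881 (log2 0.15, 0.10, 0.11, 0.11 and 0.07) and not with it, a difference that itself passed the test, as the interaction, for HNRNPH1 and HNRNPA0. The rise of HNRNPH1 was lost without vehicle replicate 1 and that of HNRNPA0 without vehicle replicate 3 or SNX631 replicate 3, and both, like those of SRSF7 and HNRNPC and like the rise of HNRNPAB, HNRNPU and SRSF8 with R1881 present, were lost with library totals alone. That of SRSF7 was also lost without any of 4 libraries (vehicle 1 or 2, SNX631 2 or 3), and that of HNRNPC without any of 9 (vehicle 1, 3 or 4, SNX631 1, 2 or 4, R1881 3, both 1 or 3). The rise of SRSF8 with R1881 present was also lost without R1881 replicate 4 (FDR 0.0143) and on thinning.

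With R1881 present, the largest falls with SNX631 among the 10 were in HNRNPH3 (log2 -0.23), HNRNPDL (-0.21), HNRNPH2 (-0.21), SRSF5 (-0.19), HNRNPL (-0.18) and HNRNPD (-0.17). HNRNPH3 was at 114, 119, 113 and 112 CPM with R1881 and at 96.2, 92.4, 107 and 99 CPM with both, without overlap (edgeR FDR 2.51e-06). HNRNPL and HNRNPA3 were the members that fell both without and with R1881. TRA2A, the member with the largest called fall under Senexin B, had values of -0.06 and -0.11 with SNX631 (edgeR FDR 0.303 and 0.029). HNRNPD had -0.32 and -0.36 with Senexin B at 24 h and 0.05 and -0.17 with SNX631 at 72 h, and SRSF2 had -0.28 and -0.20 with Senexin B and 0.02 and 0.01 with SNX631. Dose and time differ between the inhibitors, so these values are only set side by side.

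Summed over members, the libraries gave 0.847% ± 0.0114 of their counts to the 38 genes with vehicle at 24 h, 0.791% ± 0.0091 with Senexin B, 0.890% ± 0.00166 with R1881 and 0.806% ± 0.0218 with both (SD, n = 3). At 72 h the shares were 0.974% ± 0.00621 with vehicle, 0.976% ± 0.0026 with SNX631, 1% ± 0.00396 with R1881 and 0.955% ± 0.0184 with both (SD, n = 4). R1881 libraries were above all vehicle libraries at each time, and libraries with R1881 and inhibitor were below all R1881 libraries. The SRSF genes took 0.179% with vehicle and 0.197% with R1881 at 24 h, and 0.198 and 0.201% at 72 h. These shares are of the library total and were not tested.

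**Figure D5:**
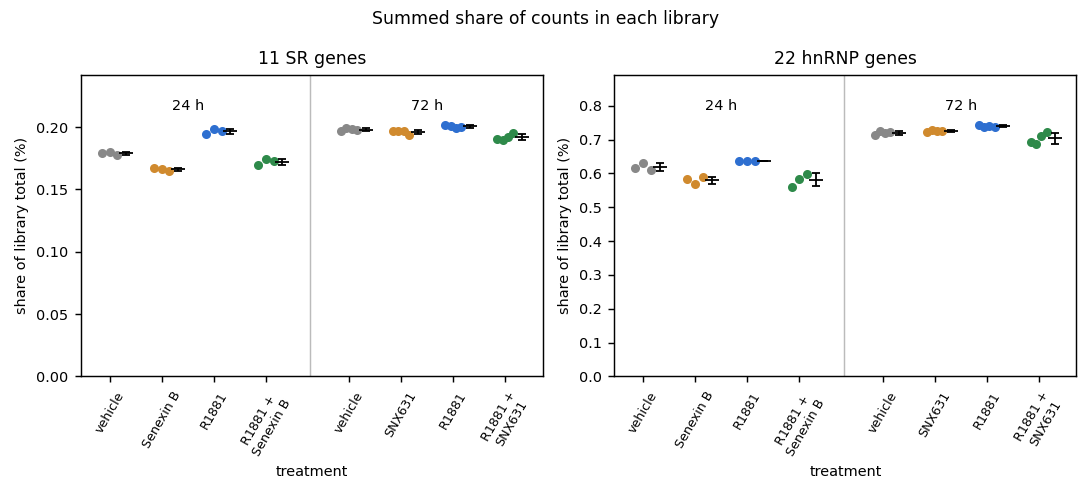
Share of the library total (vertical axes, percent, from 0) taken by the 11 SRSF genes and by the 22 hnRNP genes in each library (points), by treatment, with the mean and SD of each group beside the points. Within each experiment the R1881 libraries are highest, and the 72 h libraries of the hnRNP panel lie above those at 24 h.

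The kinases that phosphorylate SR proteins were set beside their substrates. SRPK1 rose with R1881 by a log2 fold change of 0.65 (24 h) and 0.47 (72 h), and without R1881 it rose by 0.20 under Senexin B and by 0.33 under SNX631. PRPF4B rose with R1881 by 0.40 and 0.24, and CLK3 fell by 0.27 and 0.19. CLK1 had -0.01 at 24 h and fell by 0.18 at 72 h. SRPK2, SRPK3, CLK2, CLK4 and DYRK1A did not pass the test with R1881 alone, with values between -0.14 and 0.16. Of the 9 kinases, 2 rose and 1 fell at 24 h, and 2 rose and 2 fell at 72 h. Over all genes 26.3% rose and 22.1% fell (24 h), and 27.6% rose and 24.6% fell (72 h). With library totals alone 3 of the 9 fell at each time, where 29.7% (24 h) and 35.3% (72 h) of all genes fell.

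Among 59 core spliceosome genes, R1881 raised 29 and lowered 3 at 24 h and raised 30 and lowered 5 at 72 h, with medians of 0.11 and 0.12, where 26.3% of all genes rose and 22.1% fell (24 h) and 27.6% rose and 24.6% fell (72 h). With library totals alone, 14 of the 59 rose and 10 fell at 24 h (median 0.03), and 15 rose and 14 fell at 72 h (median 0.01). The highest were LSM6 (0.49 and 0.77), SNRNP40 (0.70 and 0.46) and SNRPA1 (0.70 and 0.45), and the lowest were SLU7 (-0.32 and -0.26), PRPF6 (-0.29 and -0.13) and PRPF3, which had -0.14 at 24 h, short of the limit, and fell by 0.27 at 72 h. Of 51 other splicing regulators tested, 21 rose and 9 fell at 24 h and 22 rose and 12 fell at 72 h, and with library totals alone 14 rose and 13 fell, and 12 rose and 20 fell. ESRP2, an epithelial splicing regulator, rose by 0.78 and 0.50, and RALY, an hnRNP protein by family but not by name, by 0.44 and 0.63, with THRAP3 next at 0.37 and 0.55. MBNL2, of the muscleblind family, fell by 1.08 and 1.50, BCLAF1 by 0.24 and 0.29, and RBM5 by 0.23 and 0.25. With Senexin B, 7 of the 59 core genes rose and 2 fell without R1881, and 7 rose and 4 fell with it, while the other regulators had 5 and 2 higher and 17 and 22 lower, where 13.5 and 12.7% of all genes rose and 11.7 and 10% fell. Library totals alone gave 3 and 5 of the core genes higher and 7 lower in each, and 3 and 1 of the other regulators higher and 24 and 26 lower. With SNX631, 15 of the core genes rose and 1 fell without R1881, and 18 rose and 3 fell with it. The other regulators then had 8 and 5 higher and 5 and 16 lower. Over all genes 14.4 and 17.8% rose and 12.5 and 15.4% fell. Values with library totals alone are not given here for SNX631 in these lists.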

How the data were processed

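RNA-seq of 28 LNCaP libraries was analysed from the gene table that the authors deposited, which holds expected counts (16.9% of values above 0 are not whole), not scaled to depth. The submitters' processing notes name cutadapt 2.8, STAR 2.7.2b, Subread 2.0.3, FastQC and featureCounts, and the builds GRCh38.p13 and GRCm39. The annotation release and the use of strand in counting are not given in the sources used here. The 2 entries that are not human were left out.

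Counts were rounded. For each experiment a separate model of its 4 groups was fitted in edgeR 4.0.16 (R 4.3.3; quasi-likelihood test, TMM scaling; filterByExpr, minimum count 10, minimum total 15), with Benjamini-Hochberg adjustment of the p-values over 15948 genes at 24 h and 16074 at 72 h. The difference between experiments used all libraries (16672 genes). SE is the log2 fold change divided by the root of F. Alternatives were DESeq2 1.42.0 (Wald test, size factors), library totals, other filters and limits, a replicate block, unrounded, thinned and pseudogene-added counts, and leaving out each library. Scripts were tested on simulated data.

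Members and lists were chosen with earlier results of these data known. Members named by rule were those past the study's limit, the 3 highest and lowest by R1881 effect and by inhibitor effect, those with an interaction, and SRSF1, HNRNPA1, TRA2A, TRA2B, PTBP1 and PTBP2; others were named after their values were seen. Gene lengths are from GENCODE 29 and promoters from RefSeq (GRCh38.p14). From the neuroendocrine marker list 1 gene was left out and is not reported here.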

Additional observations from a re-analysis of the deposited data

Results flagged for a closer look

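The R1881 effect at 72 h was lower with SNX631 than without it, by a test of the interaction, for HNRNPD (-0.22), HNRNPDL (-0.22), HNRNPH3 (-0.20), HNRNPA0 (-0.17), HNRNPM (-0.17) and HNRNPH1 (-0.15), all on the log2 scale.

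The R1881 effect at 72 h minus that at 24 h, tested over all libraries, was -0.34 for SRSF2, -0.27 for SRSF7, -0.23 for SRSF6, 0.17 for HNRNPUL2 and 0.31 for SRSF8 on the log2 scale, and SRSF8 changed direction between the experiments.

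Single libraries stood apart from the other 3 of their 72 h group by a Dixon test in 6 of the 156 groups of values tested, where chance alone flags about 1 in 20. HNRNPA3 was at 319 CPM in vehicle replicate 1, beside 331 to 333 in the others. HNRNPC was at 553 CPM in R1881 replicate 1, beside 520 to 525, and at 545 CPM in replicate 4 of R1881 with SNX631, beside 525 to 526. HNRNPD was at 177 CPM in SNX631 replicate 4, beside 187 to 189. HNRNPDL was at 131 CPM and HNRNPK at 752 CPM in replicate 3 of R1881 with SNX631, beside 118 to 120 and 765 to 767 in the others.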

How the results depend on the processing

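With library totals alone for scaling, the members that fell with R1881 numbered 8 without and 10 with Senexin B at 24 h, and 11 without and 16 with SNX631 at 72 h, and those that rose and fell with SNX631 numbered 4 and 5 without R1881 and 0 rose with it, while the difference between experiments passed upward for 1. A test against a fold change of 1.5, read at an FDR under 0.05, left 1 member, higher with R1881 in Senexin B, and 0 in every other comparison. At an FDR under 0.05 the counts that moved by over 1.5 times were 3 higher with Senexin B without R1881 and 2 with it, 1 higher and 1 lower for the 24 h interaction, 5 lower with SNX631 without R1881, 10 lower for the 72 h interaction and 5 lower for the difference. The shares of all genes at an FDR under 0.05 were not computed, so these counts cannot be set against them. DESeq2 size factors, a filter on a mean of 1 CPM, a fit of all 28 libraries and thinning to the smallest total each gave 2 members higher with Senexin B without R1881. The fit of all libraries also gave 1 higher for the 24 h interaction, no filter gave 5 lower with R1881 in SNX631, and the DESeq2 Wald test, the mean filter and thinning each gave 1 higher for the difference. Of the recomputed values of members named by rule that passed the test, 976 kept their side of the limit and 30 lost their call. These pool all settings, and from the fits without 1 library take only those with the lowest and highest fold change. Counted per value over all 38 members, 161 values passed. Of these, 30 lost their call in at least 1 setting and 27 on leaving out a library. Over all comparisons, none of the 161 values that passed changed sign in a setting or on leaving out a library. Of the 257 that did not pass, 57 changed sign in a setting. Scaling by library totals changed the sign of 38, another setting that of 28, and some changed in both. Leaving out a library changed the sign of 48. For R1881 alone, scaling by library totals gave HNRNPA1 -0.06 at 24 h, and HNRNPH1 -0.04 and TRA2A -0.03 at 72 h, in place of 0.02, 0.06 and 0.07. Scaling of the gene lists by library totals was added after the data were seen. The cause was not tested.

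Leaving out each library in turn gave, higher and lower, 16 to 21 and 3 to 4 members for R1881 and 14 to 17 and 4 to 8 in Senexin B at 24 h, 1 to 2 and 12 to 14 for Senexin B and 1 and 17 to 20 in R1881, 0 and 0 to 1 for the 24 h interaction, 19 to 20 and 3 to 5 for R1881 and 16 and 8 to 9 in SNX631 at 72 h, 5 to 8 and 2 to 4 for SNX631 and 2 to 3 and 8 to 12 in R1881, 0 and 3 to 7 for the 72 h interaction, and 1 to 2 and 3 to 4 for the difference.

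Replicate numbers showed little sign of pairing the samples. Deviations of same-numbered libraries had correlations between -0.0695 and 0.19 (median 0.0194) at 24 h and between -0.0889 and 0.0565 (median 0.0116) at 72 h. Libraries with unlike numbers had correlations between -0.178 and 0.0916 (median -0.0234) and between -0.137 and 0.189 (median 0.000329). These values do not settle whether some samples were weakly paired at 24 h. A replicate block gave 2 members higher with Senexin B without R1881 and 1 lower for the 24 h interaction.

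Without the 10 most abundant genes in the total, the summed share of the members was 0.891, 0.836, 0.931 and 0.846% at 24 h (vehicle, Senexin B, R1881, both) and 1.02, 1.02, 1.04 and 0.997% at 72 h. Depth limits HNRNPA1L2 (8 to 46 counts) and HNRNPA1L3 (30 to 135 counts).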
